A study of Sus scrofa with 9 samples.

Results

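Cytokines, chemokines and their receptors were followed in the mammary gland of sows from late pregnancy to established lactation. The members were the probe sets annotated to a single gene symbol that began with CXCL, CXCR, CCL, CCR, IL, TNFSF or TNFRSF and a digit, or that was TNF, LIF, CSF1, CSF2, CSF3 or MIF, with 1 TNFRSF symbol left out by the rule. This gave 80 of the 24123 probe sets on the array, for 69 of the 6765 genes named on it, none of them CSF1. The samples were biopsies of the anterior right mammary glands of 6 Large White sows, each sampled on day -17, day 1 and day 17 counted from farrowing, with a stated window of 2 days around the outer days. RNA of 2 sows was combined in equal volumes for each Affymetrix porcine array, so each day had 3 pools and the study 9 arrays. The labels name no treatment, only a common diet of corn and soybean meal for all sows. Their ages were not given in the sources used here. A biopsy holds milk-secreting epithelium, myoepithelium, stroma, fat, vessels and immune cells together. In such bulk RNA, fewer cells of a type and less RNA per cell cannot be told apart.

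Chemokines are small secreted proteins that draw leukocytes along a gradient by binding receptors that span the membrane, named CXCL and CXCR or CCL and CCR after the spacing of conserved cysteines. Interleukins and colony-stimulating factors carry signals between immune, stromal and epithelial cells, mostly through receptors coupled to JAK kinases and STAT factors, whereas receptors of the interleukin 1 and TNF families act largely through NF-kB. In the mammary gland these proteins guide antibody-producing cells into the lactating tissue, take part in duct growth and underlie the response to infection.

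Signals are MAS5 intensities on a linear scale. Their mean after trimming 2% at each end was 500.1 on every array, so every direction is relative to that mean. A probe set was tested if it reached the 40th percentile of the array, a signal of 82.1 to 94.2 (the filter level), on at least 3 of the 9 arrays. Differences are log2 differences ± standard error from limma with n = 3 pools per day, and a gene was called at a Benjamini-Hochberg adjusted p of at most 0.05 over all 15519 tested probe sets. Nothing in the labels says whether a pool number stands for the same sows on each day, and the p-values measure the spread between these pools. The calls come from a fit on day alone, and an effect of the pool number was fitted only as an alternative. The tissue label was borne out by its markers: all 12 measured genes of luminal and secretory epithelium passed the filter, with a summed signal of 88535 to 114809 on day -17, 239439 to 340305 on day 1 and 497404 to 505376 on day 17. Pools of a day had Spearman correlations of 0.954 to 0.976 over all endogenous probe sets. Day 1 pool 1 correlated with the day -17 pools (0.944 to 0.956) nearly as highly as with the other day 1 pools (0.956 to 0.958), and it held the highest day 1 signal for 25 of the 40 tested members (62.5%), against 29.6% of all tested genes. The 21 probe sets for E. coli transcripts, meant as a constant added amount, brightened with the day. Scaling each array to them (E. coli scaling) lowered every log2 difference by 0.43 for day 1 against day -17, by 0.87 for day 17 against day 1 and by 1.30 for day 17 against day -17.

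Of the 69 genes, 40 had a tested probe set, and 30 of these reached the filter level on all 9 arrays. The remaining 29 genes stayed below the filter: 23 reached the filter level on 0 arrays, 5 on 1 and 1 on 2. From day -17 to day 1, 10 of the 40 tested genes were called, 5 higher and 5 lower, a share of 25% beside 25.7% of all 5670 tested genes (15.3% higher and 10.4% lower). From day 1 to day 17, 11 were called, 4 higher and 7 lower (27.5% beside 16.6% of all genes, 8.02% higher and 8.57% lower). From day -17 to day 17, 18 were called, 7 higher and 11 lower (45% beside 47.6%, of which 23.8% in each direction). Of the last 18, CSF3 and IL12RB2 (higher) and IL10 (lower) passed the filter mainly through the day on which they were high, so a difference was favoured for them and their calls are given as values only. In the first and last comparisons the share was thus close to that of the array as a whole. The pools of the compared days did not overlap for 14, 20 and 23 of the 40 genes (35%, 50% and 57.5%), beside 41.3%, 37.6% and 60.8% of all tested genes. The median log2 difference of the 40 genes was -0.29, -0.19 and -0.32 in these comparisons, beside -0.00082, -0.04 and -0.03 over all tested genes. For day 17 against day 1 the sign of the members' median turned without day 1 pool 1 (0.11) and with no filter (0.18). With E. coli scaling the medians were -0.72, -1.07 and -1.63. The 3 comparisons share arrays in pairs, so their values are given side by side and are not independent.

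The split by direction differed with the scaling and with 1 library. With E. coli scaling the calls were 3 higher and 14 lower for day 1 against day -17, 1 and 21 for day 17 against day 1, and 3 and 32 for day 17 against day -17. Over all 15519 tested probe sets this scaling gave 814 higher and 6271 lower, 112 and 11002, and 471 and 12685 in the same order. Most probe sets thus fell with it in the last 2 comparisons, members or not. Quantile normalization, and median centring, which raised every difference of the first comparison by 0.12, each gave 6 higher and 3 lower there. Over all tested probe sets these gave 2034 higher and 1519 lower, and 2282 and 1251. Without day 1 pool 1 the first comparison had 18 calls, 4 higher and 14 lower, without day -17 pool 3 it had 5 (4 and 1) and without day 1 pool 3 it had 6 (5 and 1). Over all tested probe sets these 3 runs gave 4424 calls (2088 higher and 2336 lower), 2324 (1328 and 996) and 2110 (1198 and 912). The count for day 17 against day 1 was 7 without day 17 pool 3, beside 1049 of all tested probe sets.

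**Figure D1:**
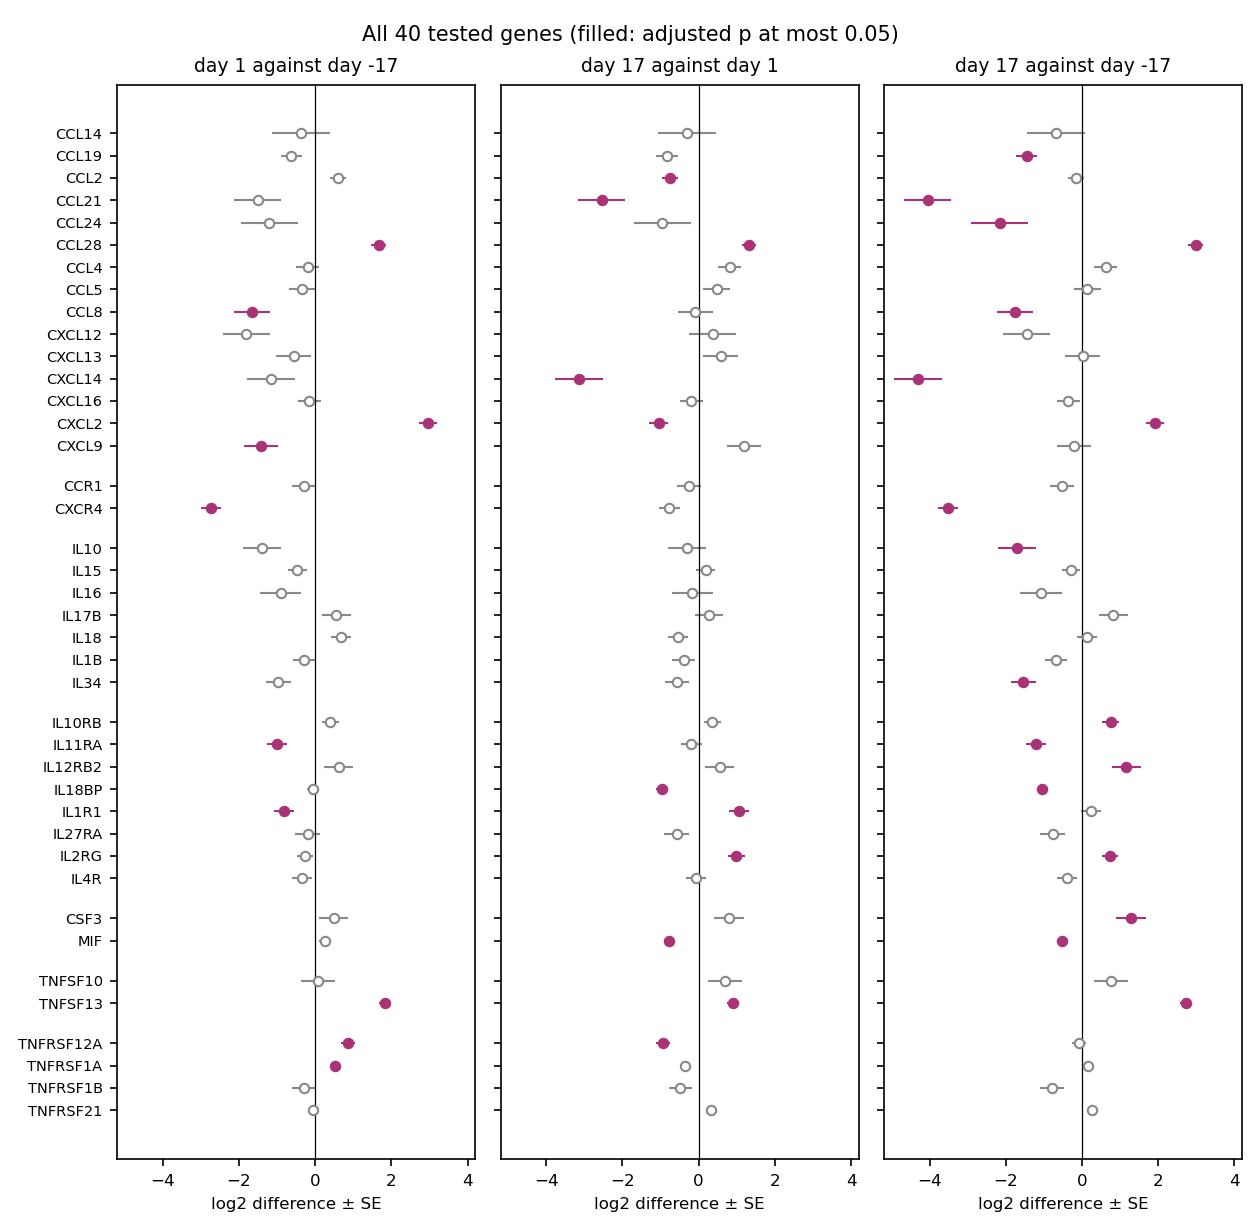
Log2 difference (x axis) with standard error for each of the 40 tested genes (y axis, grouped by role) in the 3 comparisons, where filled points had an adjusted p of at most 0.05. CCL28, CXCL2 and TNFSF13 lie to the right and CXCR4 to the left of 0 in the first panel, and CXCL14 and CCL21 lie farthest left in the third.

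Among the chemokine ligands, CCL28, CXCL2, CCL21 and CXCL14 moved most. Of the 15 tested ligands, 2 rose and 2 fell from day -17 to day 1, 1 rose and 4 fell from day 1 to day 17, and 2 rose and 5 fell from day -17 to day 17. CCL28 is the mucosal chemokine made by glandular epithelium that attracts plasma cells secreting immunoglobulin A. Its signals were 1577, 1451 and 2224 on day -17, 4269, 5505 and 6870.1 on day 1, and 13695, 13921 and 13331 on day 17. The 3 days did not overlap, and each step was upward. CCL28 rose 3.17-fold to day 1 (1.66 ± 0.19, adjusted p = 0.000415) and a further 2.51-fold to day 17 (1.33 ± 0.19, adjusted p = 0.00352), 7.93-fold in all (2.99 ± 0.19, adjusted p = 3.77e-06). These calls held in every alternative that was run. The rises remained under E. coli scaling, at 1.23, 0.45 and 1.68.

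CXCL2, a neutrophil attractant that acts on CXCR2, peaked on day 1. Its signals were 419.7, 539 and 339 on day -17, 2729, 4571 and 2901 on day 1, and 1943, 1593 and 1313 on day 17. All day 1 pools lay above all others, and all day 17 pools still lay above day -17. CXCL2 rose 7.78-fold to day 1 (2.96 ± 0.24, adjusted p = 5.07e-05) and remained 3.76-fold above day -17 on day 17 (1.91 ± 0.24, adjusted p = 0.000194). It fell 2.07-fold between day 1 and day 17 (-1.05 ± 0.24, adjusted p = 0.0191), a call lost without pool 2 of day 1 (0.0536), pool 2 of day 17 (0.0583) or pool 3 of day 17 (0.0732). CCL2, the monocyte attractant, had signals of 804, 866 and 1055 on day -17, 1866, 1346 and 999.9 on day 1, and 848, 786 and 779.7 on day 17. The day 1 pools all lay above those of day 17, while days -17 and 17 overlapped. CCL2 fell from day 1 to day 17 (-0.76 ± 0.21, adjusted p = 0.0395). That call was lost without any 1 of 7 arrays, pool 2 of day -17 (0.0531), pool 3 of day -17 (0.0513), pool 1 of day 1 (0.0803), pool 2 of day 1 (0.0833), pool 1 of day 17 (0.0853), pool 2 of day 17 (0.105) or pool 3 of day 17 (0.108). It was also lost without an intensity trend (0.0626) and with the 6 compared arrays alone (0.0576). Its difference from day -17 to day 1 was 0.59 ± 0.21 (adjusted p = 0.0652), which passed after quantile normalization or median centring and without day 1 pool 3. PGLYRP1, a neutrophil granule protein, rose with CXCL2 to day 1 (4.57 ± 0.20, adjusted p = 7.77e-07) and was 4.49 ± 0.20 above day -17 on day 17. S100A12, the other tested neutrophil marker, differed by -2.97 ± 1.51 (adjusted p = 0.176), and S100A8, S100A9, ELANE and MMP9 stayed below the filter, so the part of neutrophils in the CXCL2 rise was not tested. CXCL8, another neutrophil attractant, stayed below the filter, at the filter level only in day -17 pool 2 (102) and day 1 pool 2 (300.4).

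CCL21 and CCL19, the ligands of CCR7 that lead dendritic cells and naive T cells into lymphatics and lymph nodes, were both dimmer on day 17 than on day -17. CCL21 had signals of 1761, 1429 and 1597 on day -17, 1343, 242 and 543 on day 1, and 147, 156 and 39.2 on day 17. All day 17 pools lay below all day 1 pools, and these below all day -17 pools, but day 1 pool 1 was close to the pregnant glands and day 17 pool 3 was below the filter level. CCL21 fell 16.5-fold from day -17 to day 17 (-4.04 ± 0.62, adjusted p = 0.000605) and 5.82-fold from day 1 (-2.54 ± 0.62, adjusted p = 0.0243). Without day 17 pool 3 these falls were -3.39 and -1.89, and the second was -1.91 when pool 1 of day 1 was left out and -3.15 when its pool 2 was. The second call was lost without pool 3 of day 1 (0.0633) or pool 3 of day 17 (0.0734). The first step, -1.50 ± 0.62, missed the threshold (adjusted p = 0.102) but was called without day 1 pool 1. CCL19 had signals of 925, 533 and 729 on day -17, 727, 357 and 378 on day 1, and 275, 242 and 263 on day 17. It fell 2.74-fold from day -17 to day 17 (-1.45 ± 0.28, adjusted p = 0.00237), with groups that did not overlap. In the fit with a fixed pool effect its first step of -0.62 ± 0.28 (adjusted p = 0.132) passed (0.0433). CCR7 itself did not exceed a signal of 11.2 on any array.

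CXCL14, a chemokine of resting epithelium and stroma, was measured by a pair of probe sets. The brighter had signals of 1308, 1857 and 1928 on day -17, 624, 637 and 1026 on day 1, and 119.8, 23.8 and 213 on day 17. The other had signals of 1142, 1835 and 1785 on day -17, 437, 487 and 602 on day 1, and 116, 105 and 183 on day 17. On both, the 3 days followed each other downward without overlap, and day 17 pool 2 of the brighter probe set fell below the filter level. CXCL14 fell 19.7-fold from day -17 to day 17 (-4.30 ± 0.63, adjusted p = 0.000478), and the second probe set fell 11.9-fold (-3.57 ± 0.26, adjusted p = 7.61e-06). Without day 17 pool 2 the fall of the brighter probe set was -3.39, and without day 17 pool 3 it was -4.97. From day 1 to day 17 the falls were -3.13 ± 0.63 (adjusted p = 0.0119) and -1.95 ± 0.26 (0.00222), the former -2.22 without day 17 pool 2, -3.80 without day 17 pool 3 and -2.54 as the mean of both probe sets. The first step was called on the second (-1.62 ± 0.26, adjusted p = 0.00205) and not on the brighter (-1.17 ± 0.63, adjusted p = 0.199). On the brighter it passed with the 6 compared arrays alone (0.0187) or without day 17 pool 2 (0.0193). The mean of both probe sets also passed (-1.40, adjusted p = 0.0362).

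CCL8, CCL24 and CXCL9 each fell in at least 1 comparison. CCL8, a monocyte attractant, had signals of 184, 771 and 616 on day -17, 173, 164 and 95.7 on day 1, and 125, 118 and 155 on day 17. The pregnant pools lay above all others, although pool 1 did so narrowly. CCL8 fell 3.18-fold to day 1 (-1.67 ± 0.47, adjusted p = 0.0286) and was 3.37-fold lower on day 17 than on day -17 (-1.75 ± 0.47, adjusted p = 0.0119). The first call was lost without pool 2 of day -17 (0.0955), pool 3 of day -17 (0.0995), pool 2 of day 1 (0.0502) or pool 3 of day 1 (0.106) and with the 6 arrays alone (0.0633), whereas the second held in all 19 alternatives run. Without day -17 pool 1 the falls were -2.30 and -2.39. CCL24, which attracts eosinophils through CCR3, had signals of 2819, 1084 and 804 on day -17, 2281, 433 and 203 on day 1, and 427, 248 and 259.6 on day 17. Pool 1 was the highest on each day, and day 1 pool 1 lay within the pregnant range. CCL24 fell from day -17 to day 17 (-2.16 ± 0.75, adjusted p = 0.0376), a call lost without pool 1 of day -17 (0.122), pool 2 of day -17 (0.0598), pool 1 of day 17 (0.056), pool 2 of day 17 (0.099) or pool 3 of day 17 (0.0961) and without an intensity trend (0.0579). CXCL9, an interferon-induced T cell attractant, had signals of 166, 189 and 412 on day -17, 153, 82.7 and 53.8 on day 1, and 160.0, 292 and 178 on day 17. It was lowest on day 1, where 2 pools were below the filter level, and fell from day -17 (-1.42 ± 0.45, adjusted p = 0.0432). This call did not survive a fixed pool effect (0.053), quantile normalization (0.059), median centring (0.0544), no filter (0.0595), no intensity trend (0.0576) or the 6 arrays alone (0.0737). It was also lost without pool 2 of day -17 (0.0648), pool 3 of day -17 (0.15), pool 2 of day 1 (0.098), pool 3 of day 1 (0.152), pool 1 of day 17 (0.0548) or pool 3 of day 17 (0.06).

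**Figure D2:**
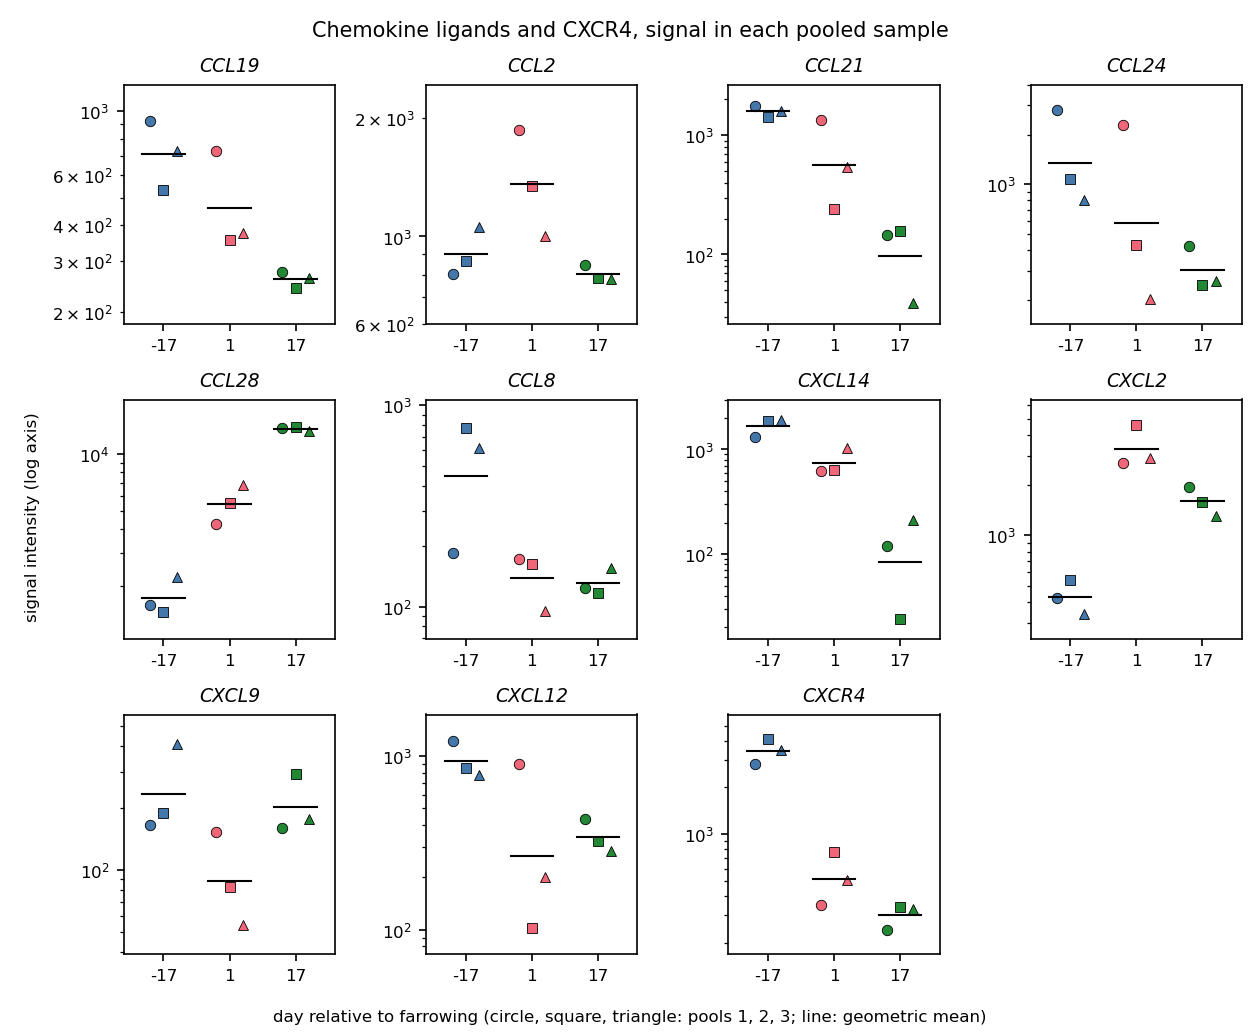
Signal intensity (log y axis) of the called chemokine ligands, of CXCL12 and of CXCR4 in each of the 3 pools of days -17, 1 and 17 (x axis), with circles, squares and triangles for pools 1, 2 and 3 and a line at the geometric mean. CCL28 steps upward without overlap, CXCL2 peaks on day 1, and the circle of day 1 lies near the pregnant pools for CCL21, CCL24 and CXCL12.

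CXCR4, the receptor of CXCL12 on leukocytes and many other cells, was the only chemokine receptor called. Its signals were 2821, 4090.3 and 3503 on day -17, 351, 763 and 504 on day 1, and 242, 339.7 and 331 on day 17. The lowest pregnant pool lay far above the highest lactating pool. CXCR4 fell 6.69-fold to day 1 (-2.74 ± 0.27, adjusted p = 0.000152) and was 11.4-fold lower on day 17 than on day -17 (-3.51 ± 0.27, adjusted p = 1.14e-05). Both calls held in every alternative that was run. The step from day 1 to day 17 (-0.77 ± 0.27) did not pass (adjusted p = 0.0838). Its ligand CXCL12, a homing factor made by stromal cells, had signals of 1227, 849.7 and 774 on day -17, 905, 102 and 200.3 on day 1, and 434, 322 and 285 on day 17 on the brighter of its probe sets. Day 1 pool 1 again stood with pregnancy while the other day 1 pools were the lowest of all. The difference from day -17 to day 1 missed the threshold on this probe set (-1.82 ± 0.62, adjusted p = 0.0562) and passed on the other (-1.53 ± 0.41, adjusted p = 0.0242). Without day 1 pool 1 the brighter probe set passed in this comparison (-2.70, adjusted p = 0.000467) and was higher on day 17 than on day 1 (1.26, adjusted p = 0.0314). In the fit with a fixed pool effect the brighter probe set passed for day 1 (0.0161) and for day 17 (0.0229) against day -17, the latter from -1.45 ± 0.62 and an adjusted p of 0.0779.

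The other chemokine receptors gave little signal. CCR1, a receptor of CCL3, CCL5 and related ligands, had signals of 145, 204 and 141 on day -17, 209.6, 120.2 and 91.1 on day 1, and 106, 114 and 113 on day 17 and passed in no comparison, with differences of -0.29 ± 0.32, -0.25 ± 0.32 and -0.53 ± 0.32 in the order above. CCR2, CCR3, CCR7, CCR9 and CXCR6 stayed below the filter, with highest signals of 74.9 for CCR2, 89.3 for CCR3, 11.2 for CCR7, 121 for CCR9 and 94.7 for CXCR6. CCR2, CCR3, CCR7 and CXCR6 bind CCL2, CCL24, CCL21 and CXCL16 respectively, and each reached the filter level on at most 1 array. CXCL16 itself, a membrane-anchored ligand, had signals of 384, 815 and 833 on day -17, 437, 545 and 788 on day 1, and 505, 473 and 522 on day 17 and was not called.

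The remaining ligands were not called in any comparison. CCL14, a plasma chemokine acting on CCR1, had signals of 2151, 479 and 471 on day -17, 2076, 455 and 237 on day 1, and 651, 549.6 and 328 on day 17. Pool 1 was far above the others on days -17 and 1, and the differences were -0.37 ± 0.77, -0.31 ± 0.77 and -0.68 ± 0.77. CCL4 (143 to 442) and CCL5 (192 to 552), attractants of T cells and monocytes, differed by 0.82 ± 0.30 and 0.48 ± 0.35 between days 1 and 17. Between days -17 and 17 CCL4 differed by 0.62 ± 0.30 (adjusted p = 0.117, or 0.049 after quantile normalization). CXCL13, the B cell attractant, ranged from 47.9 to 171, reached the filter level on 4 arrays and differed by 0.02 ± 0.46 between days -17 and 17. The highest signals of the ligands below the filter were 44.9 for CCL25, 115 for CCL27 and 67.5 for CCL3L1. Without the filter CCL27 passed for day 17 against day -17 (2.68, adjusted p = 0.0422).

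Pool 1 held the highest signal on every day for 7 members, CCL5, CCL14, CCL19, CCL24, CXCL12, IL15 and TNFRSF1A (17.5% of the 40, against 6.51% of all tested genes). Pool 2 did so for 3 members, CCL4, CXCR4 and IL17B (7.5% against 6.35%), and pool 3 for 2, CXCL14 and CXCL16 (5% against 6.08%).

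Interleukins were mostly dim, and the 2 called, IL34 and IL10, were lower on day 17 than on day -17. For IL10 the passage through the filter favoured a difference. Of the 18 interleukin genes 7 were tested, 0 were called for day 1 against day -17 or for day 17 against day 1 (3 and 0 had an unadjusted p under 0.05), and 2 fell from day -17 to day 17. IL34, a ligand of the macrophage receptor CSF1R, had signals of 551, 579 and 621 on day -17, 385, 405 and 168 on day 1, and 164, 177 and 276 on day 17. The pregnant pools lay above all others. IL34 fell 2.91-fold to day 17 (-1.54 ± 0.33, adjusted p = 0.00368), and its first step of -0.97 ± 0.33 (adjusted p = 0.0534) passed in the fit with a random pool effect (0.0439). IL10, which restrains inflammation, had signals of 178, 258 and 173 on day -17, 160.3, 80.0 and 34.3 on day 1, and 81.8, 58.9 and 47.6 on day 17. It was above the filter level on every pregnant pool, on day 1 pool 1 and on 0 day 17 pools. IL10 was called lower on day 17 than on day -17 (-1.70 ± 0.50, adjusted p = 0.0185, or -1.47 with a pseudocount of 16), a call lost without pool 2 of day -17 (0.0664) or pool 3 of day 17 (0.0601). Its step to day 1, -1.39 ± 0.50, did not pass (adjusted p = 0.0684) but did with a fixed (0.0344) or random pool effect (0.0453).

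The other tested interleukins were not called, although some passed in single alternatives. IL18, an activator of interferon release, ranged from 469.6 to 1194 and differed by 0.67 ± 0.27 between days -17 and 1 (adjusted p = 0.0905). It passed without day -17 pool 2 (0.0381). IL15, which sustains NK and memory T cells, ranged from 207 to 419.9, with -0.47 ± 0.24 in the same comparison (adjusted p = 0.182). Without day 1 pool 1 it passed (0.0265). IL1B, the fever cytokine, ranged from 57.3 to 139, with -0.68 ± 0.30 for day 17 against day -17 (adjusted p = 0.0842). That difference passed with no intensity trend (0.0375) or without day 17 pool 3 (0.0497). IL16, a ligand of CD4, ranged from 32.1 to 187 and differed by -1.08 ± 0.54 between these days. IL17B had 3 probe sets, the brightest with signals of 199, 493 and 239 on day -17, 400.2, 446 and 413 on day 1, and 291, 690.1 and 649 on day 17. Between days -17 and 17 it differed by 0.83 ± 0.38 (adjusted p = 0.0965, or 0.0295 in the fit with a fixed pool effect). The next probe set differed by -0.09 ± 0.33, and between days -17 and 1 the pair had opposite signs (0.55 ± 0.38 and -0.67 ± 0.33). The other 11 interleukins were below the filter level on all 9 arrays, with highest signals of 64.5 for IL1A, 66.1 for IL2, 8.38 for IL4, 87.6 for IL5, 59.2 for IL6, 49.9 for IL7, 59.5 for IL12A, 6.06 for IL12B, 10.0 for IL13, 13.0 for IL17A and 43.4 for IL21. Without the filter IL21 passed for day 17 against day -17 (2.45, adjusted p = 0.0499), on signals below the filter level throughout, and for the others no difference was detectable at this signal.

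Among interleukin receptors and binding proteins, members went both ways. Of the 8 tested, 0 rose and 2 fell from day -17 to day 1, 2 rose and 1 fell from day 1 to day 17, and 3 rose and 2 fell from day -17 to day 17. IL18BP, the secreted decoy that neutralizes interleukin 18, had signals of 780.5, 806 and 932 on day -17, 823, 769 and 798 on day 1, and 401, 368 and 454 on day 17. Days -17 and 1 overlapped, and all day 17 pools lay below both. IL18BP fell 1.96-fold from day 1 to day 17 (-0.97 ± 0.14, adjusted p = 0.00336) and 2.06-fold from day -17 (-1.04 ± 0.14, adjusted p = 0.000291). Both calls held in every alternative that was run, except that the fall from day 1 did not reach the 2-fold minimum. IL18R1, the receptor, stayed below the filter.

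IL11RA, the receptor chain for interleukin 11, had signals of 1215, 1148 and 1286 on day -17, 939, 512 and 455 on day 1, and 482, 700.0 and 438 on day 17. All pregnant pools lay above all lactating pools. IL11RA fell 2.02-fold to day 1 (-1.01 ± 0.27, adjusted p = 0.0223) and was 2.30-fold lower on day 17 than on day -17 (-1.20 ± 0.27, adjusted p = 0.00475). The first call was lost without pool 3 of day -17 (0.0695), pool 2 of day 1 (0.07) or pool 3 of day 1 (0.0857). IL1R1, the signalling receptor of interleukin 1, had signals of 453, 671 and 534 on day -17, 469, 296 and 211 on day 1, and 676, 623 and 638 on day 17. It was lowest on day 1 pools 2 and 3, while day 1 pool 1 lay within the pregnant range. IL1R1 fell to day 1 (-0.82 ± 0.26, adjusted p = 0.0458) and rose again to day 17 (1.07 ± 0.26, adjusted p = 0.0263). The fall was lost without pool 2 of day -17 (0.14), pool 3 of day -17 (0.101), pool 2 of day 1 (0.105), pool 3 of day 1 (0.15), pool 1 of day 17 (0.0636), pool 2 of day 17 (0.0648) or pool 3 of day 17 (0.0651). It was also lost in 5 other alternatives (quantile normalization, 0.0738, median centring, 0.0583, no filter, 0.0609, no intensity trend, 0.0647, and the 6 arrays alone, 0.0946). The rise was lost without pool 2 of day 1 (0.0657), pool 3 of day 1 (0.0695), pool 1 of day 17 (0.0795), pool 2 of day 17 (0.069) or pool 3 of day 17 (0.0734) and with E. coli scaling (0.19, adjusted p = 0.55).

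IL2RG and IL10RB were brighter on day 17 than on day -17 on the authors' scale and lower with E. coli scaling. IL2RG, the gamma chain shared by the receptors of several interleukins, had signals of 234, 302 and 233 on day -17, 257, 199 and 184 on day 1, and 525, 396 and 356 on day 17. All day 17 pools lay above all others. IL2RG rose 1.99-fold from day 1 (0.99 ± 0.21, adjusted p = 0.0154) and 1.65-fold from day -17 (0.73 ± 0.21, adjusted p = 0.0184), whereas with E. coli scaling these were 0.12 (adjusted p = 0.643) and -0.58 (0.0344). The first call was lost without pool 3 of day 1 (0.0507) or pool 1 of day 17 (0.0563), and the second without pool 1 of day -17 (0.0546), pool 3 of day -17 (0.0623) or pool 1 of day 17 (0.0728). IL10RB, a receptor chain for interleukin 10 and interferon lambda, had signals of 217, 256 and 163 on day -17, 282, 319 and 227 on day 1, and 393, 286 and 387 on day 17. It rose from day -17 to day 17 (0.75 ± 0.23, adjusted p = 0.0203), or fell with E. coli scaling (-0.55, adjusted p = 0.048). The rise was lost without pool 3 of day -17 (0.0788), pool 1 of day 17 (0.0688) or pool 3 of day 17 (0.0664).

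IL12RB2, a chain of the interleukin 12 receptor, had signals of 64.7, 36.7 and 37.0 on day -17, 70.5, 87.5 and 51.0 on day 1, and 92.8, 114 and 93.9 on day 17. It lay below the filter level on every pregnant pool and on 2 day 1 pools, and it passed the filter through day 17, where it was high. The difference of IL12RB2 from day -17 to day 17 was called higher, which its passage through the filter favoured (1.17 ± 0.38, adjusted p = 0.0299, 0.93 with a pseudocount of 16, and -0.14 with E. coli scaling). The call was lost without pool 2 of day -17 (0.0872), pool 3 of day -17 (0.0882), pool 1 of day 17 (0.0544), pool 2 of day 17 (0.0851) or pool 3 of day 17 (0.0561). IL4R and IL27RA were not called. IL4R, which binds interleukins 4 and 13, ranged from 419 to 932 and differed by -0.40 ± 0.26 between days -17 and 17. IL27RA, a receptor of T cells, ranged from 79.0 to 268 and differed by -0.77 ± 0.33. The receptors below the filter on all arrays had highest signals of 49.3 for IL2RA, 37.4 for IL6R, 59.6 for IL7R, 73.7 for IL13RA1 and 39.4 for IL18R1.

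MIF, a cytokine that binds CD74 and is made by epithelium as well as macrophages, had signals of 2702, 2843 and 3052 on day -17, 2846, 3367 and 4056 on day 1, and 1992, 2121 and 1875 on day 17. Day 17 lay below the other days without overlap. MIF fell 1.70-fold from day 1 to day 17 (-0.77 ± 0.14, adjusted p = 0.00837) and 1.44-fold from day -17 (-0.52 ± 0.14, adjusted p = 0.0124). Both MIF calls held in every alternative that was run except the 2-fold minimum, which neither reached. CSF3, the granulocyte growth factor, was dim, with signals of 71.7, 72.5 and 37.2 on day -17, 54.4, 86.9 and 112 on day 1, and 132, 124 and 171 on day 17. It lay below the filter level on every pregnant pool and passed the filter through the lactating pools, where it was high. The difference of CSF3 from day -17 to day 17 was called higher, which its passage through the filter favoured (1.28 ± 0.39, adjusted p = 0.0206, 1.08 with a pseudocount of 16, and -0.02 with E. coli scaling). That call was lost without pool 3 of day -17 (0.0734) or pool 3 of day 17 (0.0696). CSF2 and LIF were below the filter level on all arrays, with highest signals of 7.62 for CSF2 and 55.8 for LIF. Without the filter LIF passed for day 17 against day 1 (-2.25, adjusted p = 0.0426) and against day -17 (-2.58, adjusted p = 0.00708).

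In the TNF family, TNFSF13 rose at each step. TNFSF13, also called APRIL, is a survival factor for plasma cells. Its brighter probe set had signals of 504, 462 and 563 on day -17, 1479.8, 1883 and 2149 on day 1, and 3654, 3234 and 3254 on day 17. The second had signals of 61.2, 56.2 and 76.1 on day -17, 165, 144 and 167 on day 1, and 339.6, 364 and 282 on day 17. On both probe sets the 3 days were ordered upward without overlap. The second probe set lay below the filter level on every day -17 pool and passed the filter through the lactating pools, where it was high. A rise was thus favoured for it, and its differences are given as values only. TNFSF13 rose 3.57-fold to day 1 (1.84 ± 0.16, adjusted p = 5.99e-05), a further 1.86-fold to day 17 (0.89 ± 0.16, adjusted p = 0.00719) and 6.64-fold in all (2.73 ± 0.16, adjusted p = 1.51e-06). The second probe set gave 1.31 ± 0.22, 1.04 ± 0.22 and 2.35 ± 0.22. The only call lost in any alternative was the rise from day 1 to day 17, with E. coli scaling (0.02, adjusted p = 0.901) and with the 2-fold minimum. CCL28 and TNFSF13 were the 2 members called higher in all 3 comparisons, and 0 members were called lower in all 3. TNFSF10, the death ligand TRAIL, ranged from 160.4 to 707 and was not called (0.77 ± 0.45 for day 17 against day -17). TNF and TNFSF4 stayed below the filter, with highest signals of 88.6 for TNF and 77.7 for TNFSF4.

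All 4 TNF receptor genes were tested, and 2 were called higher on day 1 than on day -17. TNFRSF12A, the receptor of the TNF-like factor TWEAK, had signals of 385, 485 and 457 on day -17, 916, 832 and 662 on day 1, and 485, 357 and 424 on day 17. Day 1 lay above both other days, which overlapped. TNFRSF12A rose 1.81-fold to day 1 (0.85 ± 0.18, adjusted p = 0.00833) and fell 1.90-fold to day 17 (-0.93 ± 0.18, adjusted p = 0.0107). A second probe set of the gene gave 0.97 ± 0.30 and -1.12 ± 0.30. The rise was lost with E. coli scaling (0.43, adjusted p = 0.0828). TNFRSF1A, the widely expressed TNF receptor, had signals of 1126, 962 and 1056 on day -17, 1683, 1402 and 1423 on day 1, and 1354, 1124 and 1069 on day 17 and rose 1.43-fold to day 1 (0.52 ± 0.14, adjusted p = 0.0254). That call was lost without pool 2 of day -17 (0.0827), pool 3 of day -17 (0.0668), pool 1 of day 1 (0.0565) or pool 3 of day 1 (0.0517) and with E. coli scaling (0.09, adjusted p = 0.657). TNFRSF1B, the TNF receptor of leukocytes and endothelium, had signals of 2141, 1348 and 1788 on day -17, 2474, 1077 and 1027 on day 1, and 978, 1005 and 1021 on day 17. Day 17 was the lowest day, at -0.79 ± 0.30 from day -17 (adjusted p = 0.0545), which passed with a fixed (0.0233) or random pool effect (0.0365). It also passed with the 6 compared arrays alone (0.00594), and without pool 1 of day 1 (0.00357), pool 3 of day 1 (0.0477) or pool 2 of day -17 (0.0426). TNFRSF21, a death receptor, ranged only from 1222 to 1716 and was not called.

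**Figure D3:**
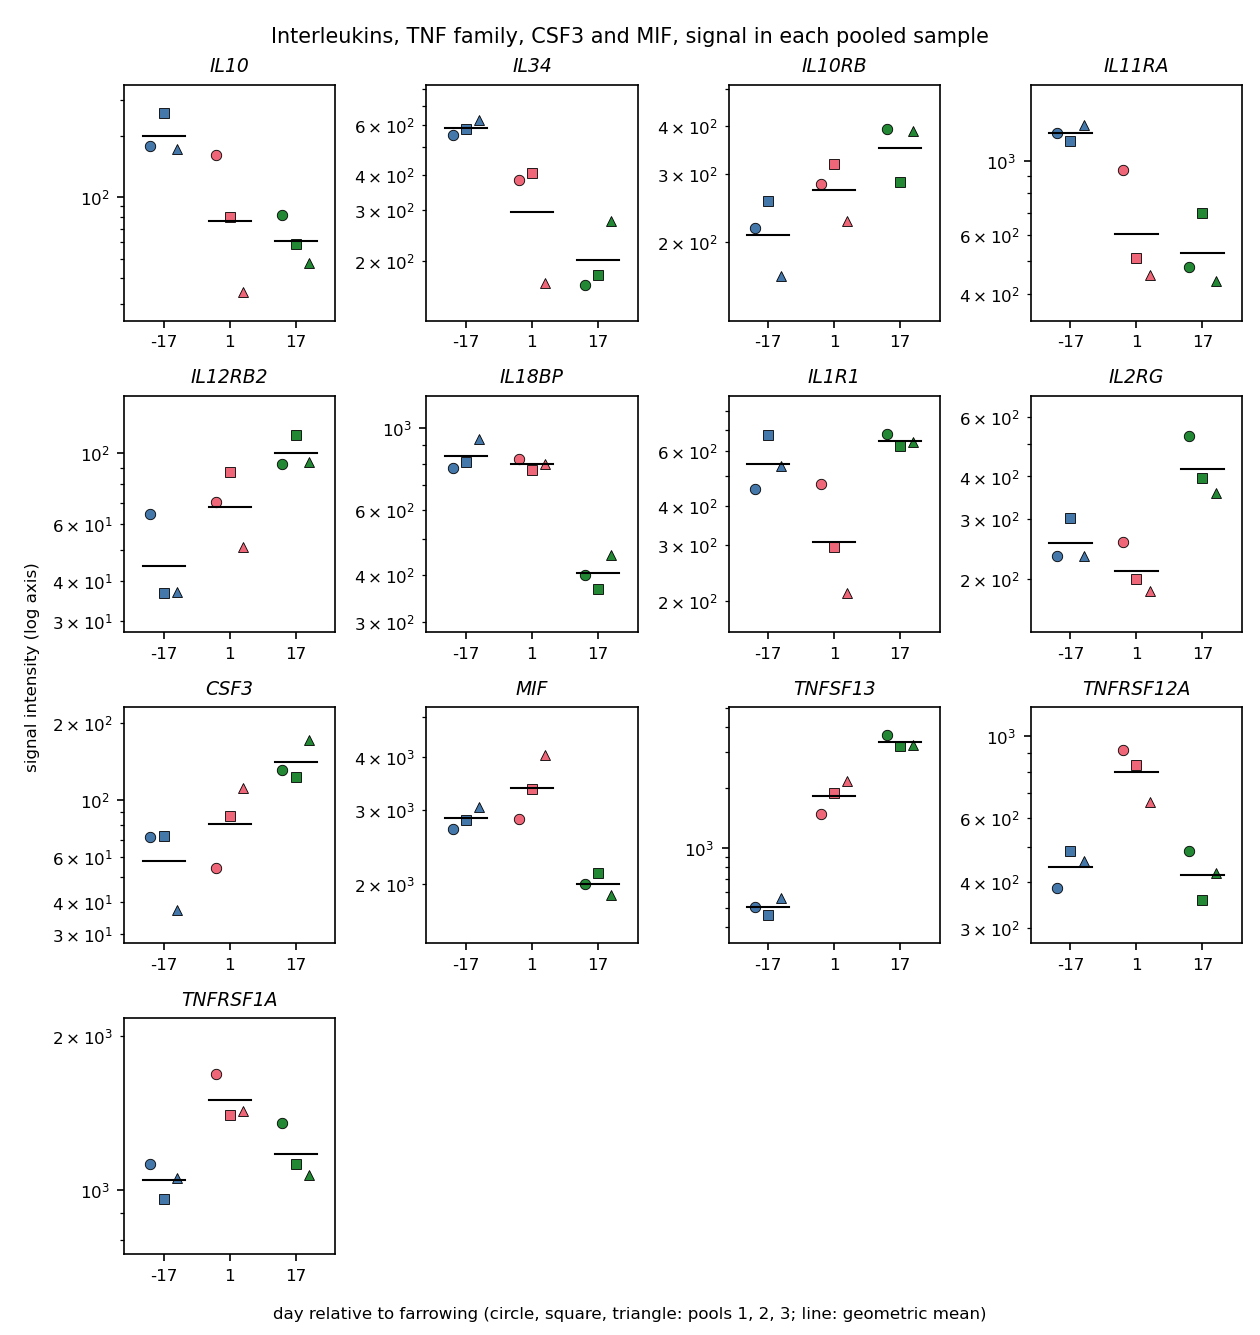
Signal intensity (log y axis) of the called interleukins, receptors, CSF3, MIF and TNF family genes in each of the 3 pools of days -17, 1 and 17 (x axis), with circles, squares and triangles for pools 1, 2 and 3 and a line at the geometric mean. TNFSF13 steps upward without overlap, TNFRSF12A peaks on day 1, and IL18BP and MIF are lowest on day 17.

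The signalling genes downstream of these receptors were taken as lists. Over all tested genes, 15.3%, 8.02% and 23.8% rose and 10.4%, 8.57% and 23.8% fell in the 3 comparisons. The counts over all tested probe sets with E. coli scaling are given above. Of 17 tested genes of NF-kB, interleukin 1 and TNF receptor signalling, 8 rose and 0 fell from day -17 to day 1 (median 0.47), 4 and 0 from day 1 to day 17 (median 0.19), and 11 and 0 from day -17 to day 17 (median 0.69). With E. coli scaling these counts were 2 and 1, 0 and 11, and 1 and 12. MYD88, the adaptor of interleukin 1 and Toll-like receptors, rose to day 1 (1.58 ± 0.26) and to day 17 (2.48 ± 0.26 from day -17, 1.17 with E. coli scaling). FADD, an adaptor of death receptors, rose to day 1 (0.91 ± 0.17, 0.48 with E. coli scaling). NFKBIB, an inhibitor of NF-kB, rose from day 1 to day 17 (0.65 ± 0.18, -0.22 with E. coli scaling). Of 13 tested JAK, STAT, SOCS and PIAS genes, 3 rose and 1 fell, 2 rose and 0 fell, and 4 rose and 3 fell in the 3 comparisons, with medians of -0.18, 0.05 and -0.05. Among the 3 that fell from day -17 to day 17, beside 4 that rose and are not named, was SOCS1, an inhibitor of JAK kinases (-1.58 ± 0.53). STAT5A, a factor downstream of prolactin and several interleukins, fell as well (-0.82 ± 0.25). With E. coli scaling the rises and falls of this list were 0 and 7, 0 and 10, and 0 and 12. Of 13 tested receptors and ligands with other symbols, 3 rose and 2 fell, 0 and 0, and 3 and 3 (medians -0.26, -0.12 and 0.08), or 0 and 5, 0 and 8, and 0 and 11 with E. coli scaling. Among the 2 of them that fell from day -17 to day 1, beside 3 that rose and are not named, was CD74, which binds MIF (-0.59 ± 0.18). CD40, a TNF family receptor of antigen-presenting cells, rose from day -17 to day 17 (1.03 ± 0.21), whereas it differed by -0.27 with E. coli scaling. RARRES2, the attractant chemerin, fell between these days (-1.70 ± 0.45).

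Markers of the cell types in the biopsy went in different directions. Their counts stand beside 15.3%, 8.02% and 23.8% of all tested genes higher and 10.4%, 8.57% and 23.8% lower in the 3 comparisons. Fibroblast markers (8 tested of 8 measured) had a summed signal of 42724 to 62991 on day -17, 19804 to 51980.3 on day 1 and 19719.9 to 21133 on day 17, and 3, 1 and 6 of them fell in the 3 comparisons while 0 rose. The lowest day 1 sum lay within the day 17 range and the highest within the day -17 range. General leukocyte markers (7 tested of 8 measured, PTPRC below the filter) summed to 6486 to 7222 on day -17, 4583 to 7435 on day 1 and 4523 to 4631 on day 17, and macrophage and dendritic cell markers (8 of 10) to 12923 to 14726 on day -17, 7338 to 19816 on day 1 and 6221 to 8183 on day 17. From day -17 to day 17, 1 rose and 4 fell of the former, and 1 rose and 4 fell of the latter. T and NK cell markers (6 of 12, with CD3D, CD3G and CD4 below the filter) summed to 757 to 1052 on day -17, 453 to 826 on day 1 and 818 to 853 on day 17, with the lowest sums on day 1, as for CXCL9 and IL1R1. Of these 6 markers 2 fell from day -17 to day 1, and 0 fell from day -17 to day 17. Both tested mast cell markers fell from day -17 to day 17 (sum 878 to 1073 on day -17, 357 to 555 on day 1 and 301 to 491 on day 17), and of 8 endothelial markers 0 rose and 1 fell (sum 6300.1 to 10598 on day -17, 6881 to 10381 on day 1 and 6483 to 7753 on day 17). The only tested B cell marker, CD79B, had signals of 11.9 to 63.1 on day -17, 30.5 to 57.6 on day 1 and 129 to 156 on day 17, so it passed the filter through day 17, where it was high. Its difference from day -17 to day 17 was 2.34 ± 0.59 (adjusted p = 0.00887), and 1.03 with E. coli scaling, where it was not called (adjusted p = 0.116). Myoepithelial markers (4 tested) and adipocyte markers (6 tested) had 2 rises and 0 falls, and 2 rises and 2 falls, between these days. Of the 12 epithelial genes 8 rose, milk protein genes foremost, and 2 fell. With E. coli scaling the rises and falls from day -17 to day 17 were 0 and 8 for fibroblasts, 0 and 6 for leukocytes, 0 and 7 for macrophages, 0 and 4 for T and NK cells, 0 and 8 for endothelium, 0 and 3 for myoepithelium, 0 and 5 for adipocytes and 5 and 4 for epithelium. Over all 15519 tested probe sets, 471 rose and 12685 fell between these days with that scaling. The part of these markers in the changes of the cytokine and chemokine genes was not tested.

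**Figure D4:**
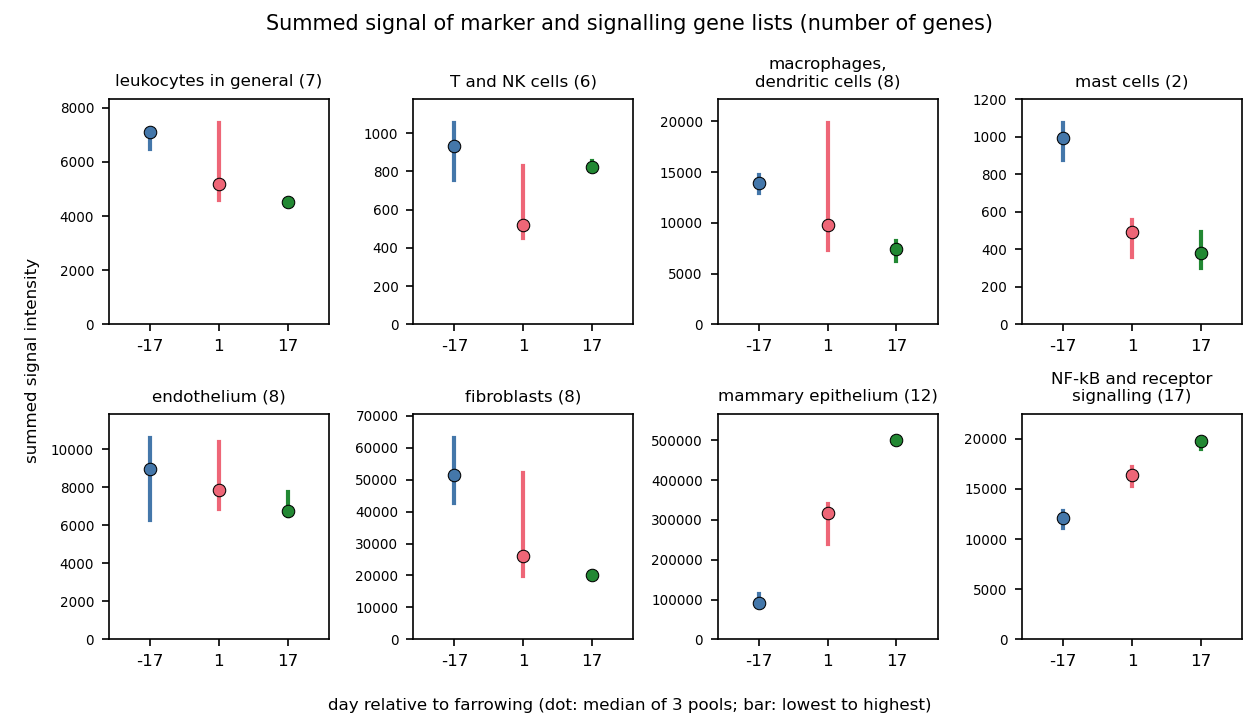
Summed signal intensity (linear y axis from 0) of 7 cell type marker lists and of the NF-kB and receptor signalling list on days -17, 1 and 17 (x axis), with a dot at the median of the 3 pools and a bar from the lowest to the highest. Fibroblast, macrophage and mast cell markers are lower on day 17 than on day -17, and epithelial and signalling genes are higher on this scale. For fibroblast and macrophage markers the day 1 bar is the longest of the panel.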

How the data were processed

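RNA of mammary biopsies was pooled from 2 sows per array and hybridized to 9 Affymetrix porcine arrays, 3 per day. The deposited values are MAS5 signal intensities on a linear scale, per the submitters' processing notes, which give no version, and their common trimmed mean shows that the authors scaled the arrays alike. MAS5 subtracts mismatch signal, so dim values are noisy. Depth is not defined for arrays, and their number limits the precision. GEO's platform annotation gave 1 symbol to 10099 probe sets, several to 198 and none here to 13826, and all 80 member symbols were found in the RefSeq gene table.

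For the calls, 124 control probe sets were left out, signals were taken as log2, and limma 3.58.1 in R 4.3.3 (lmFit, eBayes with an intensity trend, two-sided) fitted the day to all 9 arrays over the 15519 probe sets past the filter, with Benjamini-Hochberg adjustment. With a 3 against 3 design an exact permutation test cannot go below 0.1, so none was used. A gene is represented by its tested probe set of highest mean log2 signal. Genes called in any comparison are named with all 9 signals, other tested members with their range and members below the filter with their highest signal. From each list of pathway or marker genes at most 2 called genes per direction and comparison are named. Members, lists and tests were chosen with earlier results of these data known. Genes whose probes could match close paralogs, such as CCL3L1 and CCL4, are uncertain.

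On data simulated from these arrays, 40, 41 and 44 of 100 probe sets changed 2-fold were called in the 3 comparisons (taken as in the results), and 79, 84 and 85 of 100 changed 4-fold, with 7.75%, 6.72% and 6.52% false calls.

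Pool numbers were taken to pair the arrays for day 1 against day -17 (correlations of same-numbered deviations 0.235 to 0.506, of others -0.387 to 0.113) and for day 17 against day -17 (0.105 to 0.130, others -0.0739 to -0.0421), since every same-numbered pair exceeded 0.1. For day 17 against day 1 this cut was narrowly missed (0.0960 to 0.107, others -0.0768 to -0.0268), so they were not taken to pair those arrays. Numbers that paired day -17 with both other days would pair these days as well, so the cut does not settle this. The pairing comes from the pool numbers in the labels, which do not name the sows. The calls of the results come from the fit on day alone, which leaves this pairing out. Counts from the fits that include it are given below. Alternatives were quantile normalization, median centring, E. coli scaling, other filters, a pseudocount of 16 and no intensity trend. Others were the mean of a gene's probe sets, the 6 compared arrays alone, and each array left out. A fixed or random effect of the pool number (a block) was also fitted. A 2-fold minimum was applied to the counts of called members, and the lost calls listed for single genes leave it out unless named.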

Additional observations from a re-analysis of the deposited data

How the results depend on the processing

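Of the 39 called gene results, 21 kept their direction and stayed past the threshold in all alternatives run, up to 20 for each. The other 18 lost the call in at least 1. The 2-fold minimum is not among these 20. The counts of called members (10 from day -17 to day 1, 11 from day 1 to day 17 and 18 from day -17 to day 17) became 17, 22 and 35 with E. coli scaling. Of all 15519 tested probe sets, 7085, 11114 and 13156 were called with that scaling. With a 2-fold minimum the counts were 7, 5 and 15. Of the 21 it drops both MIF calls and the falls of IL18BP and TNFRSF12A from day 1 to day 17. Leaving out each array in turn gave 5 to 18, 7 to 14 and 14 to 20 calls. The results that reversed did so for day 17 against day -17 with E. coli scaling, by that scaling's shift: CSF3 to -0.0194, IL10RB to -0.55, IL12RB2 to -0.14 and IL2RG to -0.58. With a fixed replicate block (the pool number) the counts were 12, 13 and 21, and with a random block 13, 13 and 19. Over all tested probe sets the fixed block gave 4496, 2743 and 7825 calls and the random block 4463, 2792 and 7804. For day 17 against day 1, where the numbers narrowly missed the cut for pairing, the fixed block added CCL19 (0.0236) and CXCR4 (0.013). Beside the calls given with a block in the results, the block changed no other call in the comparisons taken as paired. All other alternatives for the 3 counts stayed within 1.5 times. Signals near the filter level limit what could be seen of interleukins and chemokine receptors.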

Other observations

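A pair of genes of this family carry symbols that the rule does not reach. AMCF-II, a porcine neutrophil attractant of the CXC type, had signals of 4705, 4610.3 and 3561 on day -17, 3859.6, 4127 and 2868 on day 1, and 4555, 4536 and 4433 on day 17 on its brightest probe set. It was called in no comparison (-0.25 ± 0.16, 0.33 ± 0.16 and 0.08 ± 0.16 from day -17 to 1, day 1 to 17 and day -17 to 17), and its other 2 probe sets stayed below the filter. CCRL2, a receptor of chemerin, had signals of 136, 104 and 110.5 on day -17, 104, 63.3 and 50.7 on day 1, and 122, 119 and 114 on day 17. It was lowest on day 1 pools 2 and 3 and was called in no comparison (-0.74 ± 0.31, 0.77 ± 0.31 and 0.03 ± 0.31). Both were looked at after the values of these arrays were known.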
